A study of Mus musculus with 20 samples.

Results

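Mab21l1, Cntfr, Tub, Dio3 and Pcdh10 are 5 of 23990 genes counted in phalanges, the bony segments of the digits, of mouse embryos. They were picked by symbol from earlier results of the same libraries as genes with more transcript in digit 1 than in digit 2, so their digit 1 and digit 2 values are described here without a test. Digit 1, the thumb of the forelimb and the hallux of the hindlimb, was sampled at its distal and proximal phalanx. Digit 2 was sampled at its distal, middle and proximal phalanx, and these 5 anatomical samples are called elements. Each element of each limb was sequenced once at embryonic day 17 (E17) and once at embryonic day 16 (E16), which gave 20 mRNA libraries, 10 from the hindlimb and 10 from the forelimb. RNA of 10 embryos was pooled for a library at E17 and of 20 embryos at E16, and no treatment is named. The strain, genotype and sex of the embryos are not given in the sources used here.

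No combination of stage, limb and element was replicated. The p-values below therefore measure how far matched libraries of different elements, limbs or stages agree, since there are no replicate litters. Stage cannot be told apart from pool size, count table or the embryos used. Total counts ranged from 75278309 to 111204552 per library at E17 and from 70871735 to 77361898 at E16. All 5 genes had 1 row in each table and passed the filter on low counts, and the lowest count of any of them in a library was 42. Markers of cartilage, tendon, joint, epidermis, endothelium and macrophages were found in every library, so each is a mixture of tissues. In such bulk samples, fewer cells of a type and less RNA per cell cannot be told apart. Skeletal muscle markers stood apart in the forelimb digit 1 proximal libraries, where 16 genes summed to 3289 CPM (counts scaled to library size) at E17 and 1055 CPM at E16, against 17.7 to 537 CPM in the other 18 libraries.

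The 5 genes belong to unrelated families. Digit 1 differs from the other digits in having no middle phalanx and in forming where late HoxD genes other than Hoxd13 are low. Mab21l1 encodes a member of the MAB-21 family and is needed for lens development in the mouse. Cntfr encodes the ligand-binding receptor subunit for ciliary neurotrophic factor (CNTF), and it signals through Il6st and Lifr. Tub is the founding member of the tubby family, whose proteins bind membrane phosphoinositides and carry receptors into the primary cilium. Dio3 encodes the deiodinase that inactivates thyroid hormone and lies in an imprinted region. Pcdh10 encodes a delta protocadherin, a cell adhesion protein best known from the nervous system.

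The start regions of Dio3, Tub and Pcdh10 are shown because these genes were higher in digit 1 in 4 of 4 distal pairs and have 1 promoter entry each. Sequences are from RefSeq on assembly GRCm38.p6 and span 250 bases before to 50 after the transcription start, 5' to 3' on the gene's strand. The regions are chr12:110278980-110279279 (plus strand) for Dio3, chr7:109010630-109010929 (plus strand) for Tub and chr3:45378148-45378447 (plus strand) for Pcdh10. Capitals mark the only match of the motifs searched.
Dio3: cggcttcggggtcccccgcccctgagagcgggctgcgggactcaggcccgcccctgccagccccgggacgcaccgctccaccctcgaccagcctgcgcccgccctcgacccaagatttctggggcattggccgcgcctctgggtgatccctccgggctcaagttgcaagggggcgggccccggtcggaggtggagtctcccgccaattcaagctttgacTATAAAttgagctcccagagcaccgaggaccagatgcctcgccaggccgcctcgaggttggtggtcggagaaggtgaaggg
Tub: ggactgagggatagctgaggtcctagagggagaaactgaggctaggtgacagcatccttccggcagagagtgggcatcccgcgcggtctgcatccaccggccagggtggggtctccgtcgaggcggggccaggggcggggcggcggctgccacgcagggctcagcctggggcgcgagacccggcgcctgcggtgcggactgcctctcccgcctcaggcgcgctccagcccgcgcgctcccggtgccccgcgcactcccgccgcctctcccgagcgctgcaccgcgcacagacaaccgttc
Pcdh10: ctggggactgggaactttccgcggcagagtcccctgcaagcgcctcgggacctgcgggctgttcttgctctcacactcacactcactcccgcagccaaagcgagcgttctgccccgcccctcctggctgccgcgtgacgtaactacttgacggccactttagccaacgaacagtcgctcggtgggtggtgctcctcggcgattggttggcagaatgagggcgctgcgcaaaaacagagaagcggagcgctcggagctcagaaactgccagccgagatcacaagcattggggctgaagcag
TATAAA (the TATA box), CAATAAA (a HOX13 type site), GACCACCC (a GLI core) and AGGTGTGA (a T-box site) were searched on both strands. Promoters of 4 of the 5 genes were in the table. The Dio3 promoter held TATAAA at position -31 from the start. No motif was found in the promoters of Tub or Pcdh10 or in any of the 6 Cntfr entries. Of 32851 promoters in the table, 13.6% held TATAAA, 4.6% CAATAAA, 0.807% GACCACCC and 1.28% AGGTGTGA. All 3 sequences shown were rich in G and C, at 69% for Dio3, 73.7% for Tub and 62.3% for Pcdh10, against a median of 52.7% and an upper quartile of 61.7% over all promoters. They held 25, 34 and 24 CpG dinucleotides in the same order, against a median of 7. A match is a description of the letters and not a binding site.

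Some reads may belong to neighbouring transcripts, because the library kit is not marked as strand-specific. Mab21l1, on chromosome 3, is a gene of 1 exon inside Nbea on the opposite strand and overlaps 1 exon of Nbea in GENCODE M21. Nbea ranged from 34.8 to 140 CPM. Tub, on chromosome 7, overlaps Ric3 on the opposite strand, which ranged from 1.04 to 3.72 CPM. Dio3, on chromosome 12, also has 1 exon and lies next to Dio3os, which ranged from 0.237 to 4.91 CPM, without overlapping it. Pcdh10, on chromosome 3, overlaps the antisense gene 1700027H10Rik, which reached at most 0.0446 CPM. Cntfr, on chromosome 4, overlaps no annotated gene.

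More transcript in digit 1 was measured in every like-named pair of phalanges for 3 genes and in part of the pairs for the other 2. Over the 8 pairs matched for phalanx, limb and stage, Cntfr, Tub and Dio3 were higher in digit 1 in 8 of 8, Pcdh10 in 6 of 8 and Mab21l1 in 4 of 8. Together 34 of 40 pairs were higher in digit 1, a description only, since these genes were chosen on the same values. Among all genes tested, 1.49% passed the test in the distal comparison of the digits (0.686% higher and 0.807% lower in digit 1) and 1.22% in the proximal one (0.814% higher and 0.403% lower), but nothing is read from these shares because the same values chose the genes. The groups of 4 libraries did not overlap for 3 of 5 genes distally (Cntfr, Tub and Pcdh10) and for 2 of 5 proximally (Tub and Dio3). The share of all genes whose groups did not overlap was not counted, so nothing is read from these counts. CPM values here are scaled by the TMM factors, and mean log2 ratios are given with the SD over 4 matched pairs.

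**Figure D1:**
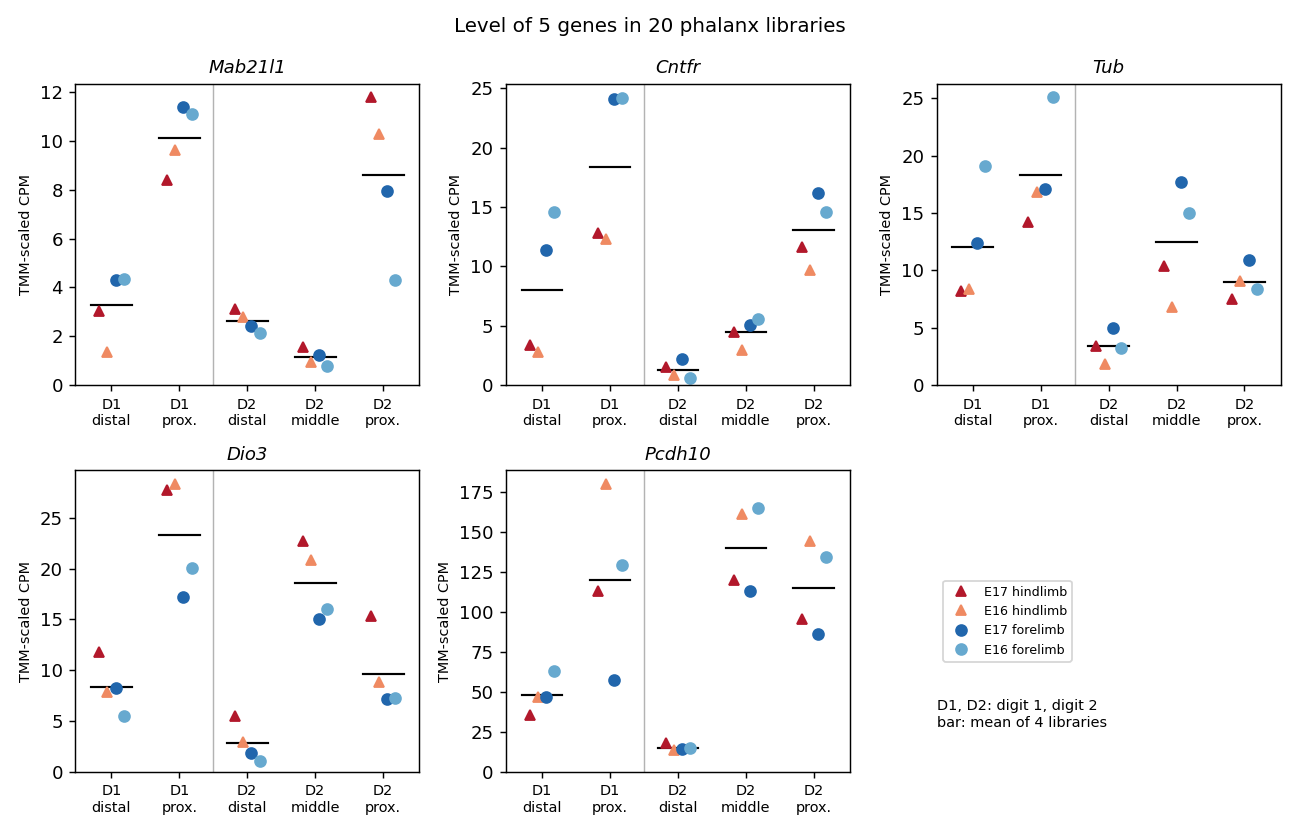
Level of each gene in the 20 libraries, in TMM-scaled CPM from 0 on the vertical axis, by element on the horizontal axis (D1, digit 1; D2, digit 2). Each point is 1 library, marked by limb and stage, and the bar is the mean of 4 libraries. Cntfr, Tub, Dio3 and Pcdh10 had their lowest means in the digit 2 distal phalanx, where Cntfr averaged 1.27 and Dio3 2.86 CPM.

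Cntfr had the widest distal difference between the digits. In digit 1 distal phalanges it had 3.34 CPM in hindlimb E17, 2.78 in hindlimb E16, 11.4 in forelimb E17 and 14.6 in forelimb E16. In digit 2 distal phalanges the values were 1.49, 0.861, 2.19 and 0.554 CPM in the same order. Every digit 1 library was above every digit 2 library, and the forelimb digit 1 libraries were the highest. The mean log2 ratio was 2.49 ± 1.57, a 5.61-fold difference, and single pairs ranged from 1.16 to 4.72. The widest pair, forelimb E16, rests on the lowest count of the set, 42 reads in digit 2.

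Proximally the Cntfr difference was small. Digit 1 proximal phalanges had 12.8 CPM in hindlimb E17, 12.3 in hindlimb E16, 24.1 in forelimb E17 and 24.2 in forelimb E16, against 11.6, 9.71, 16.2 and 14.6 CPM in digit 2 proximal phalanges. All 4 pairs were higher in digit 1, with a mean log2 ratio of 0.45 ± 0.26, but the groups overlapped. The digit 2 middle phalanx, which has no counterpart in digit 1, had 4.44, 2.94, 5.03 and 5.6 CPM, all below every digit 1 proximal library (mean log2 ratio 1.99 ± 0.32). In digit 2, Cntfr thus ran from 1.27 ± 0.726 CPM distally over 4.5 ± 1.15 CPM in the middle to 13 ± 2.9 CPM proximally (SD, n = 4 each).

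Tub was higher in digit 1 at both positions. Its distal values in digit 1 were 8.18 CPM in hindlimb E17, 8.39 in hindlimb E16, 12.4 in forelimb E17 and 19.1 in forelimb E16, against 3.42, 1.8, 5.01 and 3.27 CPM in digit 2. Proximally it had 14.2, 16.8, 17.1 and 25.1 CPM in digit 1, against 7.53, 9.05, 10.9 and 8.35 CPM in digit 2. No digit 1 library overlapped the digit 2 libraries at either position. The mean log2 ratio was 1.83 ± 0.65 distally and 1.01 ± 0.40 proximally, or 3.56-fold and 2.01-fold. The digit 2 middle phalanx had 10.4, 6.76, 17.7 and 15 CPM, which overlapped the digit 1 proximal values (mean log2 ratio 0.62 ± 0.57).

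Dio3 showed the widest proximal difference among the 5 genes. In digit 1 proximal phalanges it had 27.7 CPM in hindlimb E17, 28.3 in hindlimb E16, 17.2 in forelimb E17 and 20.1 in forelimb E16, against 15.3, 8.88, 7.13 and 7.3 CPM in digit 2 proximal phalanges. Every digit 1 library exceeded every digit 2 library, with a mean log2 ratio of 1.32 ± 0.35, or 2.49-fold. Distally digit 1 had 11.8, 7.88, 8.25 and 5.51 CPM and digit 2 had 5.52, 2.96, 1.89 and 1.07 CPM. The distal groups met only where hindlimb E17 digit 2 (5.52 CPM) and forelimb E16 digit 1 (5.51 CPM) crossed, and all 4 pairs were higher in digit 1 (mean log2 ratio 1.75 ± 0.59). The digit 2 middle phalanx, at 22.7, 20.8, 15 and 16 CPM, was closer to the digit 1 proximal phalanx (mean log2 ratio of digit 1 proximal over digit 2 middle 0.32 ± 0.10) than the digit 2 proximal phalanx was. Within digit 2, Dio3 was higher in the middle than in the proximal phalanx by a mean log2 ratio of 1.00.

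Pcdh10 was higher in digit 1 in 4 of 4 distal pairs and in 2 of 4 proximal pairs. Distal phalanges of digit 1 had 35.7 CPM in hindlimb E17, 46.6 in hindlimb E16, 46.9 in forelimb E17 and 63.1 in forelimb E16, against 17.8, 13.7, 14.5 and 14.6 CPM in digit 2. The groups were far apart, with a mean log2 ratio of 1.64 ± 0.47, or 3.12-fold. Proximally digit 1 had 113, 180, 57.3 and 129 CPM and digit 2 had 95.5, 144, 85.9 and 134 CPM. Digit 1 was the higher in both hindlimb pairs and the lower in both forelimb pairs, and the mean log2 ratio was -0.02 ± 0.41. The forelimb E17 digit 1 proximal library, at 57.3 CPM, was the lowest of the proximal libraries and is also the one with the highest muscle marker sum. Without both forelimb digit 1 proximal libraries, which leaves only hindlimb libraries for digit 1 proximal, the fitted proximal value was 0.36 on the log2 scale. The digit 2 middle phalanx had 120, 161, 113 and 165 CPM.

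Mab21l1 went opposite ways in the limbs. In the hindlimb, digit 1 had 3.04 CPM (E17) and 1.36 CPM (E16) distally and 8.39 and 9.62 CPM proximally, against 3.12, 2.79, 11.8 and 10.3 CPM in digit 2 in the same order. In the forelimb, digit 1 had 4.31 and 4.35 CPM distally and 11.4 and 11.1 CPM proximally, against 2.41, 2.15, 7.95 and 4.32 CPM in digit 2. Digit 1 was thus lower in 4 of 4 hindlimb pairs (log2 ratio -1.03 to -0.04, mean -0.41) and higher in 4 of 4 forelimb pairs (0.51 to 1.36, mean 0.93). In the digit 2 middle phalanx Mab21l1 had 1.56 CPM in hindlimb E17, 0.947 in hindlimb E16, 1.24 in forelimb E17 and 0.783 in forelimb E16. Those values were below every digit 1 proximal library by a mean log2 ratio of 3.20 ± 0.58, or 9.17-fold.

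Set against the digit 2 middle phalanx, the digit 1 proximal phalanx was higher in 16 of 20 pairs over the 5 genes. Those pairs share libraries and the genes were chosen on digit values, so the pooled count is a description only. The groups did not overlap for 2 of 5 genes, Mab21l1 and Cntfr. Here too the share of all genes without overlap was not counted, and nothing is read from the count. Among all genes tested, 1.85% passed the test in this comparison (1.08% higher and 0.767% lower in digit 1), and nothing is read from that share. In order of mean level, Cntfr was highest in digit 1 proximal (18.3 ± 6.68 CPM), followed by the proximal phalanx of digit 2 (13 ± 2.9 CPM), and lowest in digit 2 distal. Mab21l1 was also highest in digit 1 proximal (10.1 ± 1.39 CPM), followed by the proximal phalanx of digit 2 (8.58 ± 3.24 CPM), and lowest in digit 2 middle. The first and second elements overlapped for both genes. Dio3 and Tub were highest in digit 1 proximal (23.3 ± 5.56 and 18.3 ± 4.73 CPM) and next highest in digit 2 middle (18.6 ± 3.73 and 12.4 ± 4.84 CPM), where the libraries of these neighbours overlapped. For Pcdh10 the digit 2 middle phalanx was the highest at 140 ± 26.8 CPM, which overlapped 120 ± 50.5 CPM in digit 1 proximal and 115 ± 28.7 CPM in digit 2 proximal (SD, n = 4 each).

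**Figure D2:**
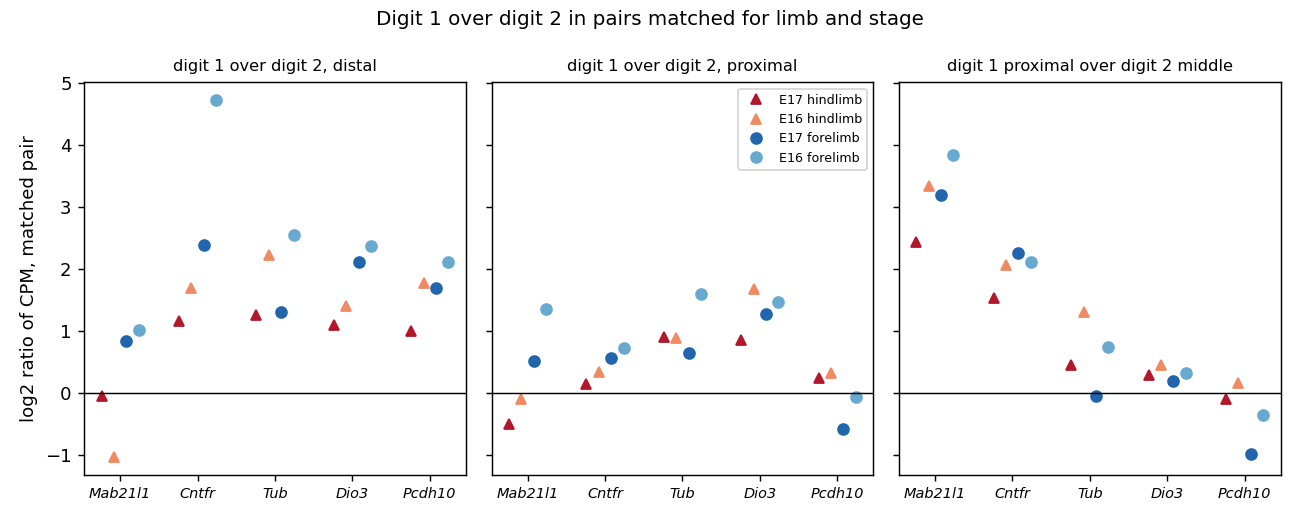
Log2 ratio of CPM in pairs matched for limb and stage, digit 1 over digit 2, for the distal phalanges, the proximal phalanges and the digit 1 proximal over the digit 2 middle phalanx. Each point is 1 pair, marked by limb and stage, and the horizontal line marks a log2 ratio of 0. Cntfr, Tub, Dio3 and Pcdh10 lie above 0 in 4 of 4 distal pairs, and Mab21l1 splits by limb.

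Position along the digit, limb and stage were tested with edgeR's quasi-likelihood F test with Benjamini-Hochberg adjustment over 14872 genes. Limb and stage were balanced over the elements, and so were separate from the digit comparisons. The position test was not, because it shares the digit 1 proximal libraries with the comparison against the digit 2 middle phalanx. Genes chosen for a high digit 1 proximal level would tend to fall distally, so the position p-values are not independent of the choice. Position along the digit moved all 5 genes the same way. Each was lower in the distal than in the proximal phalanx in 8 of 8 pairs and fell in the test, where 46.8% of all genes tested were called, 23.3% higher and 23.4% lower. Pcdh10 fell by 2.06 ± 0.15 on the log2 scale (SE; adjusted p = 4.98e-09), with 31.6 ± 19.1 CPM in distal and 117 ± 38.1 CPM in proximal libraries (SD, n = 8 each). Cntfr fell by 2.34 ± 0.25 (adjusted p = 5.79e-07), with 4.65 ± 5.3 CPM in distal and 15.7 ± 5.55 CPM in proximal libraries. Dio3 fell by 1.68 ± 0.16 (adjusted p = 1.29e-07), Mab21l1 by 1.67 ± 0.22 (adjusted p = 7.42e-06) and Tub by 1.06 ± 0.16 (adjusted p = 3.39e-05). Described without a test, the distal deficit was shallower in digit 1 than in digit 2 for Cntfr (-1.47 against -3.51), Pcdh10 (-1.23 against -2.90) and Tub (-0.66 against -1.49). For Dio3 it was -1.50 in digit 1 against -1.93 in digit 2, and for Mab21l1 -1.76 against -1.63. Marker lists moved along the digit too: 10 of 11 tendon and ligament, 9 of 9 endothelium, 8 of 8 macrophage, 7 of 10 Schwann cell, 7 of 10 joint and 7 of 12 cartilage markers fell distally, while 8 of 10 epidermis, 5 of 7 osteoblast, 2 of 10 Schwann cell and 2 of 10 joint markers rose. Their part in the distal values of the 5 genes was not tested.

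Between the limbs, 3 of 5 genes passed the test, where 21.1% of all genes tested did (9.91% higher and 11.2% lower in the hindlimb). Cntfr fell in the hindlimb by 0.87 ± 0.22 on the log2 scale (SE; adjusted p = 0.011) and was lower in 9 of 10 pairs. Its lowest, median and highest levels were 0.861, 3.89 and 12.8 CPM in the hindlimb, against 0.554, 13 and 24.2 CPM in the forelimb. Tub fell by 0.64 ± 0.15 (adjusted p = 0.00612), also in 9 of 10 pairs, with 1.8, 8.29 and 16.8 CPM in the hindlimb against 3.27, 13.7 and 25.1 CPM in the forelimb. Dio3 went the other way. It rose in the hindlimb by 0.74 ± 0.14 (adjusted p = 0.00191) in 10 of 10 pairs, with 2.96, 13.5 and 28.3 CPM in the hindlimb against 1.07, 7.78 and 20.1 CPM in the forelimb. The ranges of the limbs overlapped for all 3 genes. Mab21l1 (0.05 ± 0.2, adjusted p = 0.889) and Pcdh10 (0.11 ± 0.13, adjusted p = 0.549) did not pass the test. In the hindlimb, 8 of 11 tendon and ligament, 5 of 10 Schwann cell, 3 of 7 neuron and 2 of 16 muscle markers fell as well. So did 3 of 8 macrophage, 2 of 7 osteoblast and 2 of 9 endothelium markers. Of 12 cartilage markers 4 rose and 1 fell, of 10 joint markers 2 rose and 1 fell, and of 10 epidermis markers 1 rose and 1 fell. The part of these lists in the limb values was not tested. Without both forelimb digit 1 proximal libraries the values were -0.85 (adjusted p = 0.0353) for Cntfr, -0.68 (0.00935) for Tub and 0.78 (0.00357) for Dio3. Within the stages taken alone, Cntfr did not pass (log2 -0.78, adjusted p = 0.124 at E17; -0.93, adjusted p = 0.0954 at E16), nor did Tub at E17 (-0.54, adjusted p = 0.0574) or Dio3 at E16 (0.59, adjusted p = 0.052).

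Between the stages, 2 of 5 genes passed the test, where 65.8% of all genes tested did (32.2% higher and 33.6% lower at E17). Pcdh10 fell at E17 by 0.45 ± 0.13 on the log2 scale (SE; adjusted p = 0.00536), in 9 of 10 pairs, with a median of 71.6 CPM and a range of 14.5 to 120 CPM at E17 against a median of 132 CPM and a range of 13.7 to 180 CPM at E16. Dio3 rose at E17 by 0.33 ± 0.14 (adjusted p = 0.0485), in 6 of 10 pairs only, and leaving out any of 12 of the 20 libraries in turn ended that call, as did limma-voom (adjusted p = 0.137) and dropping the filter on low counts (adjusted p = 0.065). Cntfr (0.27 ± 0.22, adjusted p = 0.276), Mab21l1 (0.31 ± 0.2, adjusted p = 0.182) and Tub (0.08 ± 0.15, adjusted p = 0.661) did not pass. At E17, 15 of 16 muscle and 9 of 10 epidermis markers rose and 11 of 12 cartilage markers fell, and their part in the stage values was not tested.

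**Figure D3:**
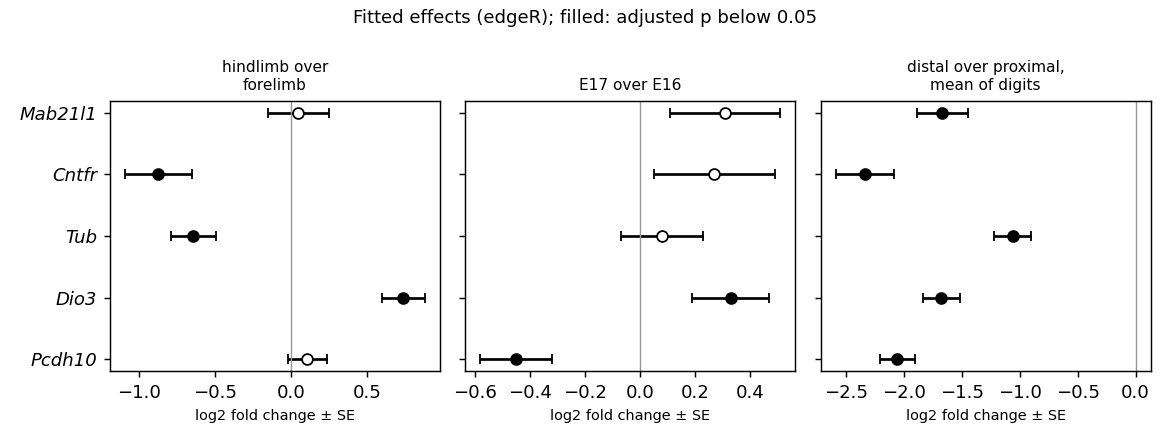
Fitted effects on the 5 genes with SE, in log2 units on the horizontal axis, for hindlimb over forelimb, E17 over E16, and distal over proximal. Filled points have an adjusted p below 0.05. Distal over proximal values lie between -2.34 and -1.06.

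The digit ratio, digit 1 over digit 2, is given by limb and stage as a description with no test, since the digit values of every limb and stage were taken to have entered the choice of the 5 genes. The fitted Mab21l1 digit ratio was lower in the hindlimb than in the forelimb by 1.3 ± 0.3 on the log2 scale (SE). The Cntfr ratio had a difference of -1.17 ± 0.36, which was -1.76 without the forelimb E17 digit 2 distal library, the one with the highest Cntfr of the 4 digit 2 distal libraries. The differences were -0.56 ± 0.27 for Dio3, -0.26 ± 0.32 for Tub and 0 ± 0.2 for Pcdh10. Between E17 and E16 the digit ratios differed by -0.82 ± 0.47 for Cntfr, -0.76 ± 0.25 for Tub and -0.42 ± 0.25 for Pcdh10. The stage differences were -0.4 ± 0.28 for Dio3 and -0.16 ± 0.47 for Mab21l1. When single libraries were left out, the Mab21l1 stage difference ran from -0.55 to 0.44, so its sign was not stable. Among all genes tested, 0.39% were called for a difference between limbs (0.0874% higher and 0.303% lower in the hindlimb). For a difference between stages edgeR called 0%, while 989 genes had an unadjusted p below 0.05 and DESeq2 called 5. Nothing is read from these shares.

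The relatives and partners of the 5 genes were read from lists, and few of them passed a test between the digits. The median log2 fold change in the distal comparison was 0.01 for the CNTF list, -0.20 for the tubby family, 0.24 for the Mab21 family, 0.00 for thyroid hormone handling, 0.79 for the imprinted region, 0.13 for the delta protocadherins and 0.03 for digit patterning, against 0.0033 over all genes tested. Of 10 tested genes of the CNTF receptor complex and its ligands, 0 passed in the distal, proximal or middle comparison of the digits. The signalling subunits Il6st (0.15 ± 0.06, adjusted p = 0.279) and Lifr (0.19 ± 0.13, adjusted p = 0.682) did not pass distally, where Cntfr differed most. The ligand Cntf itself stayed at or under 1.4 CPM and was below the filter. Between the limbs, Lifr (-0.30), Il6st (-0.11), Il6ra (-0.52) and Stat3 (-0.13) fell in the hindlimb, as Cntfr did, and the ligand Ctf1 rose by 0.24. In distal against proximal phalanges, Il6st (-0.70), Lifr (-0.32), Socs3 (-0.40) and Stat3 (-0.42) fell and Clcf1 rose by 0.34.

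Among 4 other tubby genes, 0 passed in a digit comparison. Tulp3, which also works at the cilium, had -0.13 ± 0.09 distally (adjusted p = 0.689) and 0.14 ± 0.09 proximally (adjusted p = 0.554). Tulp2, Tulp3 and Tulp4 rose distally, by 1.90, 0.40 and 0.15 on the log2 scale, where Tub fell. Among 4 other Mab21 genes, Mab21l2, the close relative of Mab21l1, passed in 1 comparison. It averaged 5.34 ± 2.78 CPM in digit 1 proximal against 1.3 ± 0.41 CPM in digit 2 middle phalanges (log2 fold change 2.02 ± 0.43 SE, adjusted p = 0.0209, 4 of 4 pairs). Without both forelimb digit 1 proximal libraries its value was 2.26 with an adjusted p of 0.08. Like Mab21l1 it also fell distally (-1.84 ± 0.31, adjusted p = 9.39e-05).

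Of 13 tested genes of thyroid hormone handling, 0 passed in the proximal or middle comparison of the digits. Dio2, the deiodinase that activates the hormone, did not pass distally either (-0.82 ± 0.43, adjusted p = 0.521). Along the digit, Dio2 rose distally by 2.2 ± 0.32 (adjusted p = 1.97e-05), where Dio3 fell by 1.68. The receptor Thrb (-1.23 ± 0.17) fell distally as well.

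Of 6 other genes of the imprinted region, Dio3os, the transcript next to Dio3, rose in digit 1 distally to 1.58 ± 0.542 CPM, against 0.707 ± 0.392 CPM in digit 2 (1.22 ± 0.29 log2, adjusted p = 0.045). That call ended with limma-voom (adjusted p = 0.0859) and without the filter on low counts (adjusted p = 0.0586), with limb-by-stage sets as a block (adjusted p = 0.0563), and when any of 15 of the 20 libraries was left out. Dio3os also rose in the hindlimb, by 0.70 ± 0.18 (adjusted p = 0.0132), as Dio3 did. Dlk1, a membrane protein of the Notch ligand family, and Rtl1, a retrotransposon-derived gene, passed against the digit 2 middle phalanx (1.65 ± 0.36 with adjusted p = 0.0229, and 2.11 ± 0.39 with adjusted p = 0.00968). Both calls ended without the forelimb digit 1 proximal libraries (1.03, adjusted p = 0.463, and 1.07, adjusted p = 0.316), the ones with the most muscle transcript, and the part of muscle in them was not tested. Distally Dlk1, Meg3, Rtl1, Rian and Mirg were higher in digit 1 in 4 of 4 pairs, as Dio3os was, but did not pass. Proximally Meg3 and Dio3os were higher in 4 of 4 pairs, and Dlk1, Rtl1, Rian and Mirg in 2 of 4. The share of all genes higher in 4 of 4 pairs was not counted.

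Among 9 other delta protocadherins, Pcdh9 passed distally (0.66 ± 0.16, adjusted p = 0.0467), at 17.2 ± 3.11 CPM in digit 1 against 10.9 ± 2.37 CPM in digit 2. It lost the call with limma-voom (adjusted p = 0.0766) and without the filter (adjusted p = 0.0641), and when any of 16 of the 20 libraries was left out. Along the digit, 7 of 9 fell distally, as Pcdh10 did, among them Pcdh11x (-3.79), Pcdh8 (-1.35) and Pcdh9 (-1.27), while Pcdh7 (0.83) and Pcdh1 (0.41) rose. At E17, 6 of 9 fell and 0 rose. These genes were Pcdh19 (-1.06), Pcdh8 (-0.81), Pcdh9 (-0.77), Pcdh18 (-0.64), Pcdh17 (-0.53) and Pcdh7 (-0.21).

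Genes that pattern the digits from anterior to posterior carried the widest digit differences among these lists. Of 36 tested, 3 were higher and 3 lower in digit 1 distally, and 6 were higher and 4 lower proximally. Several proximal calls ended without both forelimb digit 1 proximal libraries. Among the higher genes these were Dach1 (adjusted p = 0.327), Msx1 (0.563), Msx2 (0.144), Zic2 (0.138) and Tbx3 (0.124), and among the lower ones Hoxd9 (0.292). Hoxd12, a late HoxD gene, averaged 3.74 ± 2.35 CPM in digit 1 distal against 27.5 ± 3.3 CPM in digit 2 distal (-2.96 ± 0.37 log2, adjusted p = 0.00114). Irx5, an Iroquois transcription factor, averaged 28 ± 3.77 CPM against 12.1 ± 0.44 CPM distally (1.21 ± 0.21, adjusted p = 0.00694). Tbx3 rose in both positions, by 0.90 ± 0.17 distally (adjusted p = 0.0103) and 0.81 ± 0.17 proximally (adjusted p = 0.0219), the proximal call ending without both forelimb digit 1 proximal libraries (0.76, adjusted p = 0.124). Grem1, a BMP antagonist, rose distally by 3.70 ± 0.71 (adjusted p = 0.0134), at 0.666 ± 0.44 CPM in digit 1 against 0.053 ± 0.0623 CPM in digit 2, and did not pass with limma-voom (adjusted p = 0.0826). Against the digit 2 middle phalanx, 0 rose and 4 fell, of which Bmp7 lost its call without both forelimb digit 1 proximal libraries (-0.21, adjusted p = 0.679).

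**Figure D4:**
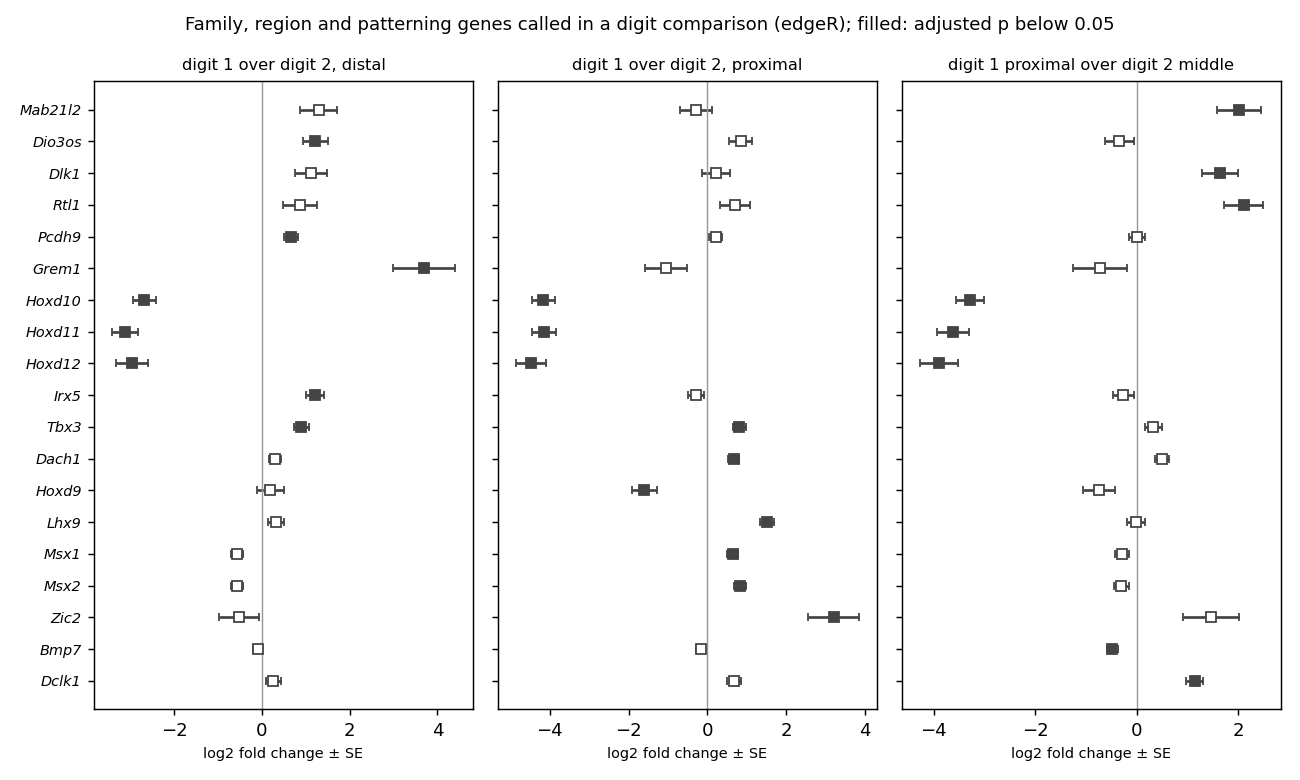
Log2 fold change with SE, on the horizontal axis, of family, region and patterning genes called in at least 1 digit comparison, in the 3 digit comparisons. Filled points have an adjusted p below 0.05. The HoxD genes lie farthest below 0, with Hoxd12 at -2.96, -4.48 and -3.90, and Grem1 lies farthest above 0 distally at 3.70.

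Levels over the 20 libraries were compared by Pearson's r of log2 CPM, as a description, since the libraries share limb, stage and element. Among the members, Cntfr and Tub (r = 0.84) and Dio3 and Pcdh10 (r = 0.82) were closest, and Mab21l1 and Pcdh10 (r = 0.16) farthest apart. The genes most like each one were Myorg (0.93), Gsap (0.92) and AW551984 (0.92) for Cntfr, and Hpse2, Nrn1 and Wnt5b (each 0.87) for Tub. For Dio3 they were its neighbour Dio3os (0.95), Shisal1 (0.86) and Shox2 (0.85). For Pcdh10 they were Irx5 (0.97), Bcl11a (0.96) and Doc2b (0.96), and for Mab21l1 Nxph4 (0.83), Hgf (0.81) and Corin (0.81).

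Marker levels of other cell types stand beside these values. The 12 neuron markers summed to 63.8 to 90 CPM in digit 1 distal and 102 to 139 CPM in digit 2 distal phalanges. They summed to 18.4 to 65.9 CPM in digit 1 proximal and 15.5 to 35.2 CPM in digit 2 proximal phalanges. Of the 7 tested, 0 passed distally, Syt1 rose proximally (2.35 ± 0.45, adjusted p = 0.0154), and Nefl and Nefm rose against the digit 2 middle phalanx. The 10 Schwann cell markers summed to 193 to 292 CPM in all libraries, though 7 of 10 fell distally, and 0 of 10 passed in a digit comparison. The 16 muscle markers summed to 43.3 to 537 CPM in digit 1 distal and 60.4 to 253 CPM in digit 2 distal phalanges, and 0 of 16 passed. Proximally they summed to 37.4 to 3289 CPM in digit 1 and 17.7 to 59 CPM in digit 2, and 15 of 16 rose in digit 1. Of 11 tendon and ligament markers, 6 fell in digit 1 proximally and 1 distally. The part of these cell types in the digit values of the 5 genes was not tested. Without both forelimb digit 1 proximal libraries the fitted proximal values were 1.12 for Tub, 1.22 for Dio3 and 0.39 for Cntfr on the log2 scale. Those for Pcdh10 and Mab21l1 were 0.36 and 0.05. With all libraries the values were 1.01, 1.32, 0.44, 0.03 and 0.27 in the same order. Only hindlimb libraries then stand for digit 1 proximal, so muscle and limb cannot be told apart in this change.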

How the data were processed

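Messenger RNA of mouse phalanges was counted in 20 libraries, grouped by the labels. The deposited tables, 1 for E16 and 1 for E17, hold the authors' raw counts per gene. HISAT2 2.2.1, StringTie 2.1.7 and the GRCm39 build are named in the submitters' processing notes; the counting step, strand setting and annotation release are not given in the sources used here. Tables were joined by symbol (23932 alike, 58 by synonym), keeping 99.03% to 99.48% of counts. Deposited TMM-scaled signal tables, scaled within each stage, were not used.

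The 5 genes and all gene lists were chosen with earlier results of these data known. Counts were fitted in R 4.3.3 with edgeR 4.0.16 (TMM, quasi-likelihood F tests, two-sided) over all 20 libraries with element, stage and limb as terms and 13 residual degrees of freedom. Interactions of limb or stage with element had 9 and are a description for the 5 genes, whose digit values chose them. Tests ran over the 14872 genes that reached 1 CPM in at least 4 libraries, with Benjamini-Hochberg adjustment and a threshold of 0.05. The common biological coefficient of variation was 18.5%. Named genes are the 5, the 3 genes most correlated with each (prior count 2), and list genes passing a digit comparison; some that did not pass, or that passed elsewhere, were named after their values were seen. Some list genes are not reported here. The fit was tested on simulated data. Alternatives were DESeq2 1.42.0, limma 3.58.1 voom, other size factors, other filters, single stages, leaving out each library, leaving out both forelimb digit 1 proximal libraries, and, chosen after seeing the data, the 4 limb-by-stage sets as a block.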

Additional observations from a re-analysis of the deposited data

Results flagged for a closer look

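Within each gene, log2 ratios of matched pairs were examined for a value far from the others, in 45 sets of 4 to 10 ratios. Chance flags about 1 in 20 such sets. The Mab21l1 ratio of the distal over the proximal phalanx in digit 1 was -2.82 in the hindlimb E16 pair, against -1.47 to -1.35 in the other 3 pairs. Its distal level there, 1.36 CPM, was the lowest of the 4 digit 1 distal libraries. The Cntfr ratio of E17 over E16 was 1.99 in the forelimb digit 2 distal pair, against -0.35 to 0.79 in the other 9 pairs, with 2.19 CPM at E17 and 0.554 CPM at E16 from 42 counts.

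The digit 1 over digit 2 ratio of Mab21l1 lay on opposite sides of 0 in the limbs, below 0 in 4 of 4 hindlimb pairs and above 0 in 4 of 4 forelimb pairs. The difference of the ratios, hindlimb minus forelimb, was -1.30 on the log2 scale. That difference was not tested, since the digit values chose the gene.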

How the results depend on the processing

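Of 125 values of the 5 genes with a test, 119 kept their side of the threshold under the alternatives other than leaving out single libraries, and no called value changed sign. All 185 digit values of the 5 genes, differences between limbs and stages included, moved by less than the spread between pairs; those of Pcdh10 near 0 changed sign in digit 1 proximal over digit 2 middle (-0.26, and 0.08 without both forelimb digit 1 proximal libraries). For hindlimb over forelimb, Cntfr was -0.78 within E17 and -0.93 within E16, Tub -0.54 (adjusted p = 0.0574) within E17 and Dio3 0.59 (adjusted p = 0.052) within E16, none passing. For E17 over E16, Dio3 was 0.19 with limma-voom (adjusted p = 0.137) and 0.33 without a filter (adjusted p = 0.065). Of 243 values of list genes in digit comparisons, 59 lost their call, and none reversed; the cause was not tested.

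Counts of genes called moved more. Hindlimb over forelimb gave 3143 in all, 163 within E17 and 1426 within E16, and distal over proximal 6954 in all and 4402 within E16, from fewer samples. DESeq2 called 196 genes for limb by digit (58 by edgeR), 5 for stage by digit (0 by edgeR), 476 in the distal, 419 in the proximal and 620 in the middle comparison of the digits (222, 181 and 275 by edgeR). In those 3 comparisons, E17 alone gave 0, 10 and 0, E16 alone 69, 5 and 10, and leaving out both forelimb digit 1 proximal libraries 391, 34 and 50.

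Leaving out each library in turn, Dio3 for E17 over E16 ranged from 0.22 to 0.39 and kept its call only without hindlimb E17 digit 1 proximal or digit 2 middle, forelimb E17 digit 1 proximal, digit 2 distal or digit 2 proximal, or forelimb E16 digit 1 proximal, digit 2 middle or digit 2 proximal. Cntfr ranged from 0.14 to 0.46 (passing once, without forelimb E16 digit 1 distal, adjusted p = 0.0471). The limb differences of digit ratios ranged from -1.55 to -1.11 for Mab21l1 and from -1.76 to -0.85 for Cntfr. Dio3 in digit 1 proximal over digit 2 middle ranged from 0.17 to 0.47. Of 540 such values of list genes in digit comparisons, 75 lost their call, among them Mab21l2 in 5 of 20 omissions (highest adjusted p 0.101, without forelimb E17 digit 2 middle) and Grem1 in 1 of 20 (0.0698, without forelimb E16 digit 1 distal). Counts ranged from 29 to 105 for limb by digit, 0 to 2 for stage by digit, 50 to 301 distally, 36 to 285 proximally and 90 to 452 in the middle comparison.

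Replicates could not be paired, because each combination of stage, limb and element has 1 library and the replicate numbers only name the libraries. Elements matched for limb and stage were compared with limb and stage as terms of the fit. Those terms do not give each of the 4 limb-by-stage sets its own level. With the 4 limb-by-stage sets as a block, chosen after seeing the data, no call among the tested values of the 5 genes changed, and Dio3os distally lost its call (1.21, adjusted p = 0.0563). Counts of the 5 genes ranged from 42 to 14334 per library.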

Other observations

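Of the other genes of the imprinted region around Dio3, 6 of 6 tested fell distally, Dlk1 by 2.80 ± 0.27 and Meg3 by 2.04 ± 0.20 on the log2 scale (edgeR, adjusted p = 1.28e-07 and 1.39e-07), where 23.4% of all genes tested were called lower. At E17, 5 of 6 rose, Dlk1 by 1.34 ± 0.23 (adjusted p = 5.59e-05) and Mirg by 1.26 ± 0.20 (adjusted p = 2.15e-05), where 32.2% of all genes tested were called higher. Dlk1, Meg3, Rtl1, Rian and Mirg each had their highest level in the forelimb E17 digit 1 proximal library, at 1344 CPM for Dlk1 and 68.2 CPM for Meg3, which also had the highest muscle marker sum. The part of muscle in these levels was not tested. Dio3 and Dio3os were highest elsewhere, Dio3 at 28.3 CPM in hindlimb E16 digit 1 proximal and Dio3os at 4.91 CPM in hindlimb E16 digit 2 middle.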
